A study of Saccharomyces cerevisiae with 22 samples.

Results

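YCR001W, YJR154W and YMR187C are protein-coding genes of Saccharomyces cerevisiae that still carry only a systematic name, and no function is given for them in the sources used here. They lie on chromosomes III, X and XIII. Each was read by 1 probe spotted 2 times, so 3 of the 6388 yeast probes on the array, and 3 of the 5311 genes they name, are described. The members were chosen on measured values from these arrays: YCR001W for a higher signal in Hsf1-aa at 0, 30 and 90 min, YJR154W for its rise in Hsf1-aa, and YMR187C for a higher signal in Hsf1-aa at 90 min. Those differences are given below as a description, with no test. For the members, p-values are given only for contrasts not named here as choosing the gene. These tests still share their estimate of spread with the arrays that chose the gene, so they are not independent support. Features named for a pattern like that of a member are likewise described with no test.

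Hsf1 is the essential transcription factor that drives chaperone genes in growing and in heated yeast. In anchor-away, rapamycin ties a protein with an FRB tag to a ribosomal protein fused to FKBP12, and the tagged protein leaves the nucleus with it. The uracil analog 4-thiouracil (4tU) enters RNA as it is transcribed, so pulling out 4tU-labelled RNA enriches newly made transcripts over those already in the cell. Ratios of such RNA follow changes in synthesis more closely than ratios of total RNA.

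Newly made RNA was measured on 22 arrays. All cells were matalpha with his3-1, leu2, lys2, ura3 and MET15, and carried the anchor RPL13A-FKBP12-NAT together with tor1-1 and fpr1del, which remove the usual response to rapamycin. Hsf1-aa cells also carried Hsf1-FRB-yEGFP, and WT-aa cells did not. The slow course gave 0.15 µM rapamycin and sampled both strains at 0, 15, 30, 60 and 90 min, with 2 arrays per group lettered a and b. The sample was in Cy3 on each a array and in Cy5 on each b array, set against a pool of 4tU RNA from WT-aa cells without rapamycin. A single array per strain followed 30 min of 7.5 µM rapamycin, the standard depletion, with the sample in Cy5 against RNA of BY4742 cells that had received no 4tU. Letters a and b stand for independent cultures according to the series text. Array titles repeat one running number over both, with no meaning given, so p-values may cover technical spread alone.

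Values are log2 of sample over reference, and a difference is in log2 units, with the SE of a limma fit over the 20 slow arrays and n = 2 arrays per group. A lack of overlap between strains at a time describes 2 arrays against 2. How many of all features lie apart in this way was not counted, so nothing more is read from it. The HSF1 probe, the check of the tagged strain, lay between -2.41 and -1.40 on the 10 Hsf1-aa slow arrays and between -0.045 and 0.17 on the 10 WT-aa slow arrays. The standard arrays gave -1.28 for Hsf1-aa, against 0.043 for WT-aa. Of 17 measured chaperone genes known as Hsf1 targets, 16 passed as lower at 60 min and 17 at 90 min (medians -1.69 and -2.13, against -0.013 and -0.0021 over all features, of which 1.22% and 1.24% passed in either direction). Replicate arrays correlated at r = -0.21 to 0.74 across features (median 0.24). The lowest came from WT-aa at 0 min, and the 30 min groups had r = 0.056 in Hsf1-aa, against 0.17 in WT-aa. Between slow arrays of one dye orientation the lowest correlation was -0.39, and the direction rests on the dyes given in the labels. The median sample signal was 863.5 to 1789 scanner units over a background of 42 to 52 units. In cultures read in bulk, fewer cells making a transcript and less new transcript per cell cannot be told apart.

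**Figure D1:**
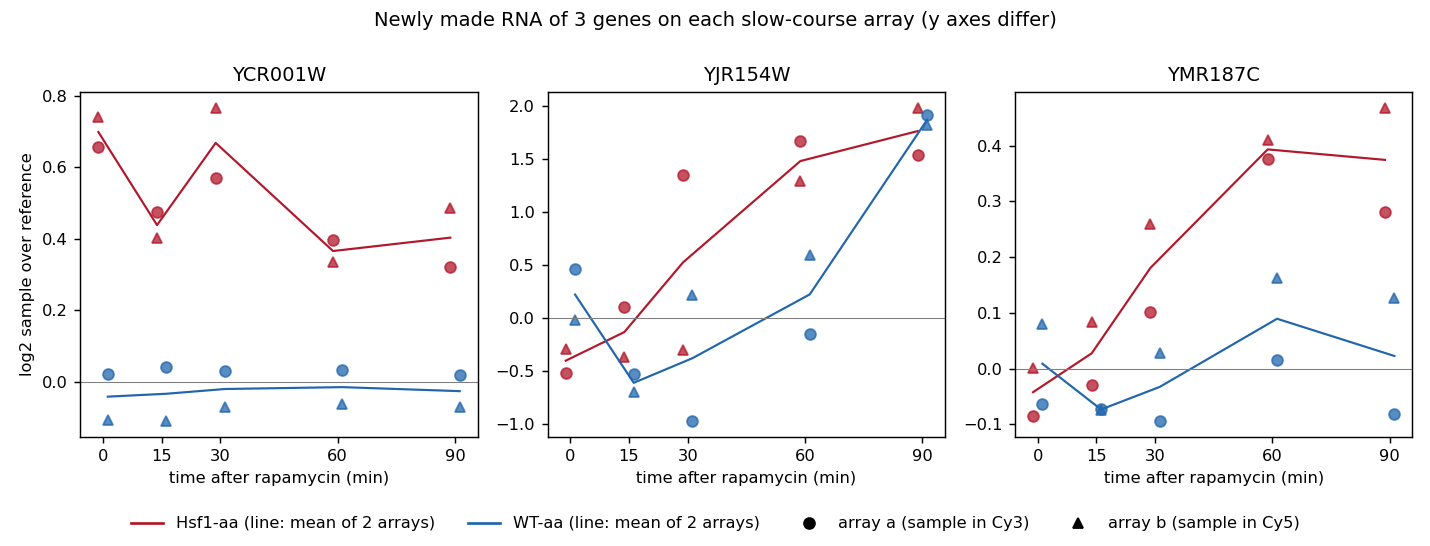
Log2 of sample over reference against time after rapamycin (min) for each slow array, in 1 panel per gene with its own y axis. Points are single arrays (mean of 2 spots), lines join the means of 2 arrays. YCR001W separates the strains at all 5 times, and YJR154W spreads widely between arrays at 30 min and is high in both strains at 90 min. The YMR187C points of the strains lie apart from 15 min on, though at 15 min the 95% interval of their difference holds 0.

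YCR001W stood above WT-aa in Hsf1-aa from the first sample onward, before rapamycin was added. At 0 min the spots read 0.65 and 0.66 on array a and 0.73 and 0.75 on array b in Hsf1-aa, against 0.0087 and 0.038 on array a and -0.11 and -0.10 on array b in WT-aa. At 15 min the Hsf1-aa spots were at 0.49 and 0.45 (a) and 0.36 and 0.45 (b), against 0.016 and 0.069 (a) and -0.11 on each spot of b in WT-aa. At 30 min they were at 0.59 and 0.55 (a) and 0.79 and 0.74 (b) in Hsf1-aa, against 0.033 and 0.030 (a) and -0.040 and -0.10 (b) in WT-aa. The WT-aa arrays stayed close to the reference pool throughout these times, and each Hsf1-aa spot was above each WT-aa spot. At 60 min the Hsf1-aa spots gave 0.41 and 0.38 (a) and 0.31 and 0.36 (b), against 0.050 and 0.016 (a) and -0.088 and -0.036 (b) in WT-aa. At 90 min they gave 0.34 and 0.31 (a) and 0.52 and 0.45 (b) in Hsf1-aa, against -0.0084 and 0.048 (a) and -0.065 and -0.078 (b) in WT-aa. The strains did not overlap at any of the 5 times, of which 0, 30 and 90 min chose the gene. The Hsf1-aa arrays ranged from 0.32 to 0.77 (median 0.48) where the WT-aa arrays ranged from -0.11 to 0.043 (median -0.021).

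The strain difference of YCR001W (Hsf1-aa minus WT-aa) was 0.74 ± 0.09 at 0 min, 0.69 ± 0.09 at 30 min and 0.43 ± 0.09 at 90 min, the times that chose it. At 15 min, a time that did not choose it, the difference was 0.47 ± 0.09 (limma adjusted p = 0.0604), and at 60 min it was 0.38 ± 0.09 (limma adjusted p = 0.0622). Neither passed the threshold of 0.05 over all 6368 features, although Hsf1-aa was higher on both arrays at both times. At these times 0.22% and 1.22% of all features passed. At 0 min 0.126%, at 30 min 0.785% and at 90 min 1.24% passed, shares from which nothing is read for a gene chosen on those contrasts. Several settings turned both missed calls into calls. Of 37 alternatives, however, 27 left the 15 min difference uncalled and 29 left the 60 min difference uncalled. Without the 4 arrays of 30 min, dropped after seeing the data, adjusted p was 0.0302 at 15 min and 0.0157 at 60 min. Leaving out either Hsf1-aa array of 30 min alone could not move the differences of 0.47 and 0.38, which that array does not enter. What changed was the estimate of spread and, through it, both calls.

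The YCR001W level of Hsf1-aa was lower at 15, 60 and 90 min than at 0 min, while the WT-aa means stayed within 0.027 of each other. The order of the 10 groups by mean level ran from Hsf1-aa at 0 min (0.70 ± 0.06, SD, n = 2), Hsf1-aa at 30 min (0.67 ± 0.14), Hsf1-aa at 15 min (0.44 ± 0.05), Hsf1-aa at 90 min (0.40 ± 0.12) and Hsf1-aa at 60 min (0.37 ± 0.04) to the 5 WT-aa groups, which lay between -0.041 and -0.015. Of the 9 steps in this order, those from Hsf1-aa 30 min to 15 min (0.23) and from Hsf1-aa 60 min to the highest WT-aa group (0.38) were larger than the 95% half-width of 0.19, and the other 7 were not. That half-width holds for a pair fixed beforehand. For groups sorted on the same values, some of which chose the gene, it is a yardstick and no test. Within Hsf1-aa the level at 60 min was below that at 0 min by -0.33 ± 0.09, and within WT-aa the same change was 0.027 ± 0.09. The Hsf1-aa levels did not run one way with time, since the 15 min group was below the 30 min group.

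YCR001W was a dim probe, and its size depends on how background is treated. In Hsf1-aa its spots gave 44.7 to 104 scanner units over local background in the sample channel, against 16.2 to 29.3 units in WT-aa, with no overlap. The reference channel gave 12.0 to 33.1 units, and the background SD was 2.79 to 7.83 units. All 40 slow spots cleared background by 2 SD in both channels. An offset of 50 units was added to each channel before the ratio was taken, which is larger than each reference reading and each WT-aa sample reading of this probe. With plain subtraction of the background in its place the strain difference was 1.49 at 0 min (2.81-fold), 1.21 at 15 min (2.31-fold), 1.48 at 30 min (2.80-fold), 1.02 at 60 min (2.03-fold) and 1.04 at 90 min (2.05-fold). The folds with the offset were 1.67, 1.39, 1.61, 1.30 and 1.35 at the same times.

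**Figure D2:**
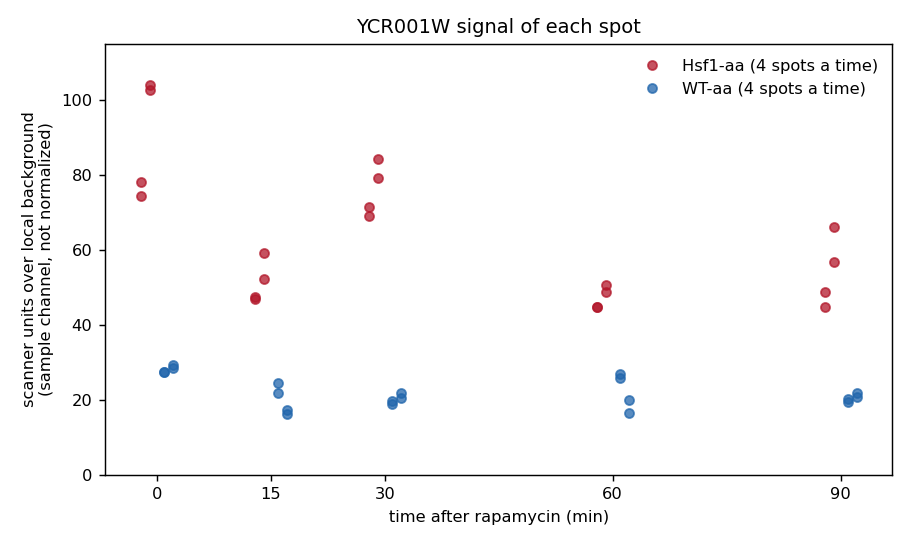
YCR001W sample-channel signal of each spot, in scanner units over local background and not normalized, against time after rapamycin (min). Each strain has 4 spots per time; the Hsf1-aa spots lie between 44.7 and 104 units and the WT-aa spots between 16.2 and 29.3 units.

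On the standard arrays YCR001W gave no usable reading. Its sample-channel spots were not above background by 2 SD in either strain, with spot ratios of -0.023 and 0.0010 in Hsf1-aa and -0.024 and 0.016 in WT-aa. The mean signal there was 5.01 units over background in Hsf1-aa and 3.62 units in WT-aa. No fold is given, and the strain difference was not detectable at this signal.

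The feature whose 10 group means were most like those of YCR001W was a probe with no gene symbol, SCAB000951, with Pearson r = 0.99 among 1988 candidates whose range was at least 0.5 times that of YCR001W. In sample-channel units over background its Hsf1-aa slow arrays gave 152 to 557, against 31.1 to 65.4 on its WT-aa slow arrays, with no overlap. Its strain difference was 1.81, 1.35, 1.96, 1.17 and 1.45 at 0, 15, 30, 60 and 90 min, each ± 0.15. The offset of 50 units shrinks the difference of a dim probe more than that of a bright one, so these sizes are not set against those of YCR001W. In both probes the Hsf1-aa groups at 0 and 30 min were the highest and the group at 60 min the lowest of the strain. On the standard arrays SCAB000951 read 0.27 in Hsf1-aa, against -0.052 in WT-aa, with 52.1 and 17.6 units. What it detects is not annotated in the sources used here, and its likeness was selected from many probes on the same arrays. The next features were SOR2, a sorbitol dehydrogenase with a near-identical copy that its probe may also read (r = 0.85), the unnamed SCAB003472 (0.84), GPX2, a glutathione peroxidase-like enzyme (0.82), and HSP31, a glyoxalase of the DJ-1 family (0.77). SOR2 had strain differences of 0.33, 0.37, 0.19, 0.054 and 0.28 at the 5 times, each ± 0.12.

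**Figure D3:**
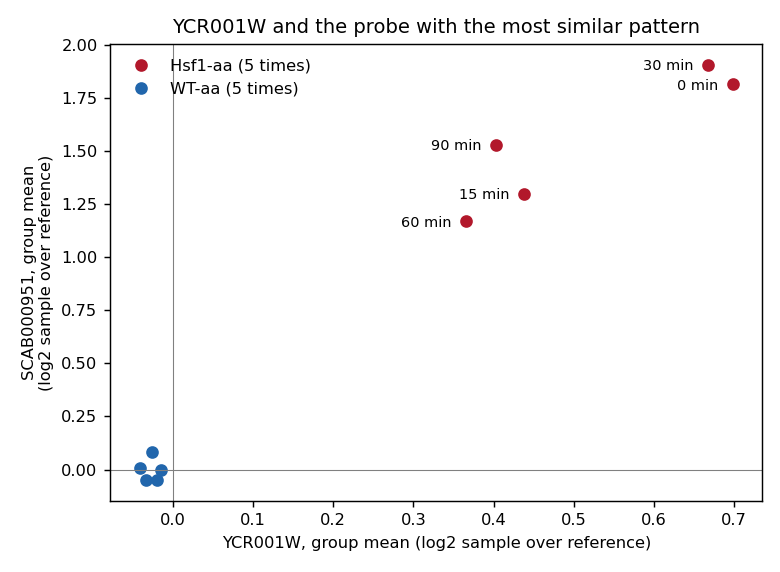
Mean log2 of sample over reference in each of the 10 slow groups, YCR001W on the x axis and the unnamed probe SCAB000951 on the y axis. Each point is the mean of 2 arrays; the 5 WT-aa groups sit near 0 on both axes and the 5 Hsf1-aa groups lie to the upper right.

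In RefSeq gene order (assembly R64) the nearest measured genes are YCL001W-A, YCL001W-B, CDC10, which encodes a septin, and MRPL32, which encodes a protein of the large mitochondrial ribosomal subunit. None of these 4 differed between strains past the threshold at any time. CDC10, the next gene and on the opposite strand, had strain differences of -0.32 ± 0.11 at 30 min (adjusted p = 0.366) and -0.34 ± 0.11 at 60 min (adjusted p = 0.253).

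YJR154W had the widest swings of the members, and it ended high in both strains. At 0 min its spots read -0.50 and -0.54 on array a and -0.31 and -0.27 on array b in Hsf1-aa, against 0.46 on each spot of a and -0.055 and 0.013 on b in WT-aa. At 15 min they read 0.086 and 0.12 (a) and -0.32 and -0.42 (b) in Hsf1-aa, against -0.54 and -0.52 (a) and -0.66 and -0.73 (b) in WT-aa. On these arrays Hsf1-aa lay below WT-aa at 0 min and above it at 15 min. The differences of -0.62 and 0.48, each ± 0.47, had 95% intervals that held 0, so no crossing of the strains is read from them. At 30 min the arrays of a group disagreed: the Hsf1-aa spots were at 1.32 and 1.38 (a) and -0.24 and -0.37 (b), against -0.99 and -0.96 (a) and 0.22 and 0.20 (b) in WT-aa. Array a was the higher of the pair in Hsf1-aa and the lower in WT-aa, and the strains overlapped. At 60 min the spots gave 1.63 and 1.71 (a) and 1.26 and 1.32 (b) in Hsf1-aa, against -0.21 and -0.10 (a) and 0.65 and 0.55 (b) in WT-aa. At 90 min they gave 1.60 and 1.48 (a) and 2.03 and 1.93 (b) in Hsf1-aa, against 1.89 and 1.93 (a) and 1.83 and 1.81 (b) in WT-aa. At 60 min both Hsf1-aa arrays were above both WT-aa arrays, and at 90 min the strains overlapped at the highest levels of the course.

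Within WT-aa, which was not used to choose YJR154W, the change from 0 to 90 min was 1.65 ± 0.47, with a 95% confidence interval from 0.62 to 2.67 (unadjusted p = 0.00419, limma adjusted p = 0.217). It was higher at 90 min on both arrays but did not pass the threshold, where 0.989% of all features passed. Over 15 to 90 min together, the moderated F-test against 0 min in WT-aa gave F = 8.44 (limma adjusted p = 0.0726), and 1.37% of all features passed it. The earlier changes from 0 min in WT-aa were -0.83 at 15 min (adjusted p = 0.348), -0.60 at 30 min (adjusted p = 0.423) and 0.0018 at 60 min (adjusted p = 0.999). The interval of the 60 min change in WT-aa ran from -1.02 to 1.03, so a rise by then may have gone unseen. Without the 4 arrays of 30 min, dropped after seeing the data, the 90 min change in WT-aa stayed at 1.65 (adjusted p = 0.00774). Those arrays carried the widest SDs of this gene within a group (1.17 in Hsf1-aa, 0.84 in WT-aa), which enter the spread of the test. The change is taken from the WT-aa arrays of 0 and 90 min, so leaving out arrays of 30 min cannot move it. Without either Hsf1-aa array of 30 min it was again 1.65, and its call changed through the spread. Of 37 alternatives, 32 left this change uncalled and 32 left the F-test uncalled.

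In Hsf1-aa, where the rise chose the gene, the change from 0 min was 0.27 at 15 min, 0.93 at 30 min, 1.88 at 60 min and 2.17 at 90 min, each ± 0.47. Over all features 2.72% passed the test of 90 against 0 min in this strain. The strain difference was -0.62, 0.48, 0.90, 1.26 and -0.11 at 0, 15, 30, 60 and 90 min, each ± 0.47. Its 95% intervals at 0, 15, 30 and 90 min held 0, and that at 60 min ran from 0.23 to 2.28. By letter, the difference at 60 min was 1.83 between the a arrays and 0.69 between the b arrays. At 30 min the same pair of differences was 2.32 and -0.51. The change of the strain difference from 0 min was 1.10 at 15 min (95% interval -0.34 to 2.55), 1.53 at 30 min (0.080 to 2.98), 1.88 at 60 min (0.43 to 3.33) and 0.52 at 90 min (-0.93 to 1.97), each ± 0.67. All intervals of this paragraph share the Hsf1-aa arrays that chose the gene, so they describe the values and no test is read from them.

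The spread of YJR154W came from differences between arrays and not between spots. The spots of an array differed by at most 0.13, while the SD between the arrays of a group reached 1.17 (Hsf1-aa at 30 min) and had a median of 0.33. The residual SD of its fit, as moderated by limma towards the spread of all features, was 0.47. This was above that of 99.9% of the features tested, whose median was 0.093. In order of mean level the groups ran from WT-aa at 90 min (1.87 ± 0.07, SD, n = 2), Hsf1-aa at 90 min (1.76 ± 0.31), Hsf1-aa at 60 min (1.48 ± 0.27) and Hsf1-aa at 30 min (0.52 ± 1.17) down to WT-aa at 15 min (-0.61 ± 0.12). No step between neighbours in this order exceeded the 95% half-width of 1.02, again a yardstick and no test. The probe gave 40.5 to 2064 units over background, and it was above background on all 40 slow spots in both channels.

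On the standard arrays YJR154W read 0.40 and 0.35 on the spots of the Hsf1-aa array and 0.30 on each spot of the WT-aa array, a difference of 0.075 with no replicate. Its sample signal was 745 units in Hsf1-aa and 758 units in WT-aa. The reference of these arrays is another RNA, so their levels are not set against those of the slow course.

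AAD10, the gene next to YJR154W on the same strand, rose in both strains. AAD10 encodes a putative aryl-alcohol dehydrogenase and belongs to a family of similar genes, whose transcripts its probe may also read. From 0 to 90 min it rose by 0.69 ± 0.08 in Hsf1-aa (limma adjusted p = 0.000243) and by 0.79 ± 0.08 in WT-aa (limma adjusted p = 0.000233). Centring the arrays on external control RNA ended both calls (0.65, adjusted p = 0.999, and 0.48, adjusted p = 0.668). The other 3 neighbours were DAL5, an allantoate permease, PGU1, an endopolygalacturonase, and THI11, a thiamine synthesis gene with near-identical copies. Their changes lay between -0.33 and 0.11 in Hsf1-aa and between -0.18 and -0.0023 in WT-aa, and none passed. Of 7 measured biotin genes, a list chosen with earlier results of these data known, 5 also passed as higher in each strain from 0 to 90 min. BPL1 and VHR1 did not pass in either strain. The medians of the 7 genes were 0.73 in Hsf1-aa and 0.64 in WT-aa, against -0.0049 and 0.0033 over all features, of which 2.72% and 0.989% passed in either direction. Centring on external control RNA left 34 of all features past the threshold in Hsf1-aa and 1 in WT-aa, so at most 1 of the 5 biotin calls of WT-aa holds under it. BIO5, a transporter of a biotin precursor, rose by 1.67 ± 0.10 in Hsf1-aa and likewise by 1.59 ± 0.10 in WT-aa (limma adjusted p = 2.21e-07 and 1.20e-06).

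Only 91 features had a range over the groups at least 0.5 times that of YJR154W. Most like it among them were the unnamed SCAB004361 (r = 0.96), YJL225C (0.96), YKR073C (0.96), and the unnamed SCAB001339 and SCAB002307 (0.95 each). YJL225C lies in the repeated ends of chromosomes and has near-identical copies, so its probe may read several genes. By Spearman's rho these features ranked from 22.5 to 40.5 among the 91, so the order of likeness depends on the measure. YKR073C had a strain difference of 1.14 ± 0.32 at 60 min and -0.021 ± 0.32 at 90 min, beside the 1.26 and -0.11 of YJR154W.

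YMR187C was alike in both strains at 0 min within the spread of the arrays and higher in Hsf1-aa at 60 min, by a small margin. At 0 min its spots read -0.071 and -0.10 on array a and -0.015 and 0.018 on array b in Hsf1-aa, against -0.079 and -0.047 (a) and 0.082 and 0.078 (b) in WT-aa. At 15 min they read -0.010 and -0.048 (a) and 0.069 and 0.10 (b) in Hsf1-aa, against -0.10 and -0.045 (a) and -0.069 and -0.078 (b) in WT-aa. The strains overlapped at 0 min, and at 15 min the array means no longer did. At 30 min the spots gave 0.13 and 0.074 (a) and 0.24 and 0.28 (b) in Hsf1-aa, against -0.12 and -0.072 (a) and 0.032 and 0.025 (b) in WT-aa. At 60 min they gave 0.37 and 0.38 (a) and 0.40 and 0.42 (b) in Hsf1-aa, against 0.033 and -0.00085 (a) and 0.14 and 0.19 (b) in WT-aa. At 90 min they gave 0.31 and 0.26 (a) and 0.50 and 0.44 (b) in Hsf1-aa, against -0.10 and -0.065 (a) and 0.15 and 0.10 (b) in WT-aa. From 30 min on each Hsf1-aa array was above both WT-aa arrays of its time, with the closest approach at 30 min.

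At 60 min, a time not used to choose it, YMR187C was higher in Hsf1-aa by 0.30 ± 0.06 (limma adjusted p = 0.0239), a 1.23-fold difference, beside 78 of 6368 features (1.22%) past the threshold, 13 of them higher. The difference was -0.051 ± 0.06 at 0 min (adjusted p = 0.998), 0.10 ± 0.06 at 15 min (adjusted p = 0.562) and 0.21 ± 0.06 at 30 min (adjusted p = 0.254). At 90 min, the time that chose it, it was 0.35 ± 0.06. Within the letters the 60 min difference was 0.36 for a and 0.25 for b. The change of the strain difference from 0 to 60 min was 0.35 ± 0.08 (limma adjusted p = 0.132), where 0.66% of all features passed. The call at 60 min was lost without any 1 of the 4 arrays of that time (adjusted p = 0.0601 to 0.353), in the authors' deposited ratios (0.25, adjusted p = 0.0636), with external-control centring (0.27, adjusted p = 1) and without the replicate block (0.30, adjusted p = 0.440).

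By value, the change of YMR187C from 0 min was larger in Hsf1-aa than in WT-aa at each later time, always against the same 0 min arrays. The strains' changes differed by 0.15 ± 0.08 at 15 min (limma adjusted p = 0.762) and 0.26 ± 0.08 at 30 min (limma adjusted p = 0.388). Neither passed, nor did the difference at 60 min given above, and that at 90 min shares the arrays that chose the gene. From 0 min the change in Hsf1-aa was 0.070, 0.22, 0.44 and 0.42 at 15, 30, 60 and 90 min, and in WT-aa it was -0.082, -0.042, 0.081 and 0.014, each ± 0.06. In order of mean level, Hsf1-aa at 60 min (0.39 ± 0.02, SD, n = 2) and Hsf1-aa at 90 min (0.37 ± 0.13) came first, then Hsf1-aa at 30 min (0.18 ± 0.11) and WT-aa at 60 min (0.089 ± 0.10). The step from Hsf1-aa 90 min to 30 min (0.19) was the one gap larger than the 95% half-width of 0.13. This is again a yardstick and no test, and the 90 min level entered the choice of the gene. The 6 groups below were Hsf1-aa at 15 and 0 min and WT-aa at 90, 0, 30 and 15 min, between 0.027 and -0.073. The probe was bright, at 397 to 1262 units over background, and its moderated residual SD of 0.059 was above that of 8.26% of features.

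**Figure D4:**
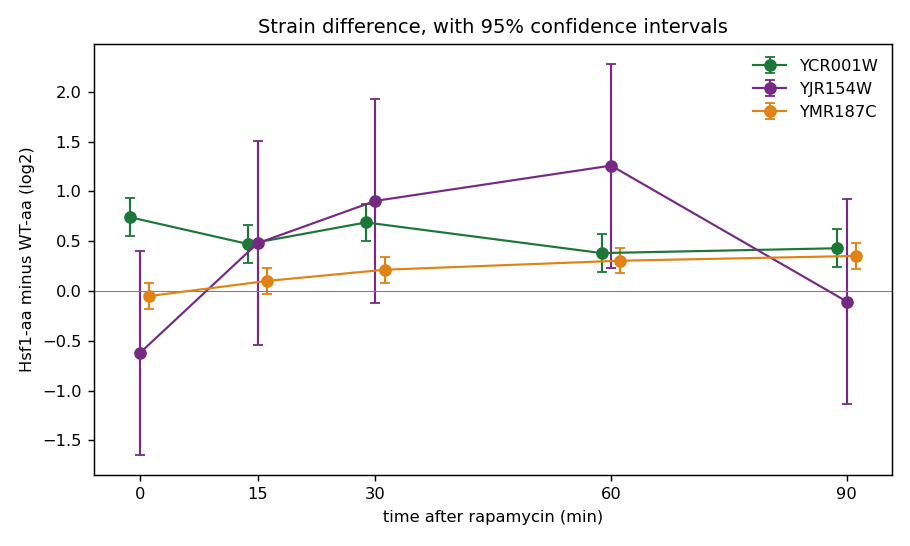
Strain difference (Hsf1-aa minus WT-aa, log2) against time after rapamycin (min) for the 3 genes, with 95% confidence intervals from the limma fit over 20 arrays. The YCR001W difference is above 0 at all 5 times (0.38 to 0.74), that of YMR187C reaches 0.35 at 90 min, and the YJR154W intervals span about 2 log2 units.

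On the standard arrays YMR187C read 0.29 and 0.32 on the Hsf1-aa spots and 0.19 and 0.17 on the WT-aa spots. The difference of 0.13 had the same direction as at 30 min of the slow course (0.21), with 1 array per strain and no test.

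The gene beside YMR187C is HSC82, which encodes an Hsp90 chaperone and is a known target of Hsf1. The pair lie on opposite strands with their 3′ ends towards each other. HSC82 has a near-identical copy, HSP82, and its probe may read both. Its strain difference was 0.038 ± 0.09 at 0 min and -0.12 ± 0.09 at 15 min. It was lower in Hsf1-aa by -0.76 ± 0.09 at 30 min (limma adjusted p = 0.00082), -1.71 ± 0.09 at 60 min (adjusted p = 2.12e-07) and -2.70 ± 0.09 at 90 min (adjusted p = 1.28e-09). From 60 to 90 min the HSC82 difference thus grew by more than its SE, while that of YMR187C, at 0.30 and 0.35, did not. Whether the loss of HSC82 transcription has a part in the YMR187C signal was not tested. Of the other neighbours, ADD37, which has a reported part in ER-associated degradation, had 0.26 ± 0.07 at 90 min (adjusted p = 0.131). MRPS17, which encodes a protein of the small mitochondrial ribosomal subunit, and GCV2, a subunit of glycine decarboxylase, did not pass at any time.

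**Figure D5:**
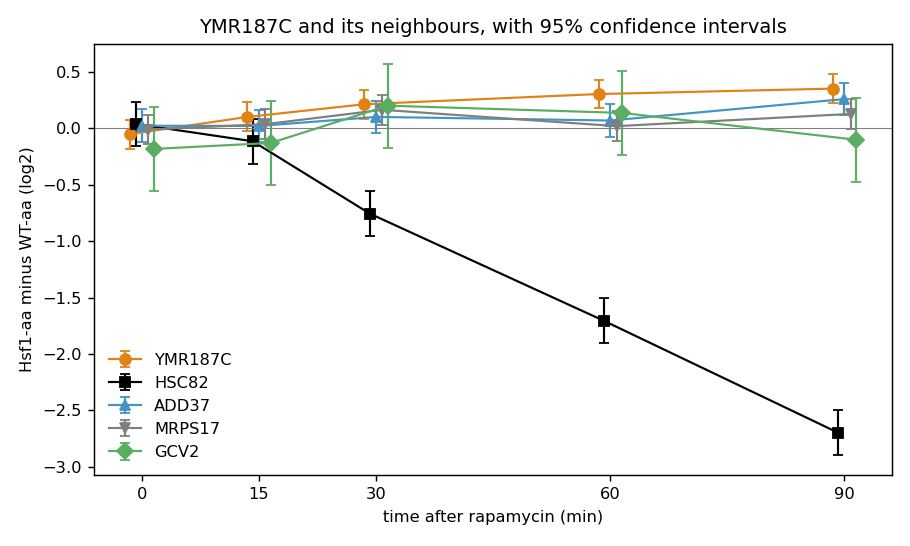
Strain difference (Hsf1-aa minus WT-aa, log2) against time after rapamycin (min) for YMR187C and its 4 nearest measured neighbours in gene order, with 95% confidence intervals from the limma fit. HSC82 reaches -2.70 at 90 min where YMR187C is at 0.35; points are set slightly apart in time for legibility.

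Among 4185 features with a range of at least 0.5 times that of YMR187C, both probes of YNL034W, another gene with only a systematic name, were the most alike (r = 0.95 and 0.94). Then came SIL1, which encodes a nucleotide exchange factor of the ER chaperone Kar2 (0.93), the unnamed SCAB000588 (0.93) and IRC4 (0.90). The strain differences of the YNL034W probes were 0.17 and 0.30 at 60 min and 0.27 and 0.37 at 90 min, each ± 0.06. SIL1 had 0.31, 0.22 and 0.21 at 30, 60 and 90 min, each ± 0.10. IRC4 ranked 658.5 by Spearman's rho and 43 in the authors' deposited ratios, and its likeness is thus the least settled.

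The 3 members did not follow one pattern. Over the 10 group means, which share the reference pool and the arrays, Pearson r was 0.74 between YJR154W and YMR187C, 0.36 between YCR001W and YMR187C and 0.047 between YCR001W and YJR154W. YCR001W was already higher in Hsf1-aa at 0 min, when the other members were not, and YJR154W was the member that reached its top level in WT-aa too. Of the 520 tested features whose gene has only a systematic name, the members included, 0.192% passed for the strain difference at 0 min, 0% at 15 min, 0.577% at 30 min, 0.769% at 60 min and 1.15% at 90 min. At 15 min the limma count was 0 of 520, with 46 at an unadjusted p under 0.05, against 617 of all 6368 features. Over all features the shares were 0.126%, 0.22%, 0.785%, 1.22% and 1.24%. Nothing is read from the shares at 0, 30 and 90 min, where the count holds a member chosen on that contrast. The count at 60 min also holds a member, YMR187C, which was chosen for its strain difference at 90 min, so nothing is read from that share either.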

How the data were processed

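Newly made yeast RNA was measured on 22 arrays with a pair of dyes each. Per the file headers, the deposited scanner tables give for every spot the linear intensity of each dye, with the local background in its own column. The authors also deposited a log2 ratio table (Cy5 over Cy3). Its scale and direction matched the scanner ratios (r = 0.63 to 0.97), its column medians were -0.0070 to 0.022, and how it was normalized is not stated.

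Spot intensity was background-corrected by normexp (offset 50), normalized by within-array loess (control spots at weight 0), turned to sample over reference, and averaged over the 2 spots of a probe. Of 6388 yeast probes, 5326 had a symbol (58 brought up to date through RefSeq R64) and 15 symbols had several probes, which were kept apart. A probe was tested if its sample signal cleared background by 2 SD on 2 or more slow arrays, which left 6368. Since loess centres every array, shifts common to all transcripts are lost. The number of arrays limits the precision.

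The 20 slow arrays were fitted in limma 3.58.1 (R 4.3.3; lmFit, eBayes) with 10 groups and the replicate letter, which is the dye, as a block. This left 9 residual degrees of freedom, or 12.5 with the prior. Same-letter arrays deviated together with a median r of 0.54 (-0.40 to 0.82). Tests were two-sided, adjusted by Benjamini-Hochberg over all features, with a threshold of 0.05. The fit was tested on simulated data. Named genes were the members, HSF1, the 2 nearest measured genes on each side, the 5 features with the highest Pearson r over 10 group means, and examples of the lists of Hsf1 chaperone targets and biotin genes. The members and lists were chosen with earlier results of these data known. Alternatives covered background, scaling, filters, spots, the fit and each array left out. The files name no genome build, so no positions are given, and promoter sequences were not used here.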

Additional observations from a re-analysis of the deposited data

Results flagged for a closer look

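The rise of YMR187C differed between the strains by the interaction term of the fit: the change from 0 to 90 min was 0.42 ± 0.06 in Hsf1-aa, against 0.014 ± 0.06 in WT-aa, which differ by 0.40 ± 0.08. The gene was chosen on the 90 min strain difference that enters this value, so no p is given. Its strain difference was higher in both letters at 90 min (0.36 for a and 0.34 for b).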

How the results depend on the processing

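No alternative turned the direction of a result that was followed through them. The YJR154W strain differences at 0, 15, 30 and 90 min were not followed. Nor were its WT-aa changes before 90 min or the values of the standard arrays. Plain subtraction gave YCR001W 1.49, 1.21, 1.48, 1.02 and 1.04 at 0, 15, 30, 60 and 90 min (adjusted p = 0.0075 and 0.00553 at 15 and 60 min), and an offset of 10 gave 1.21, 0.89, 1.16, 0.74 and 0.78 (adjusted p = 0.0156 and 0.0139). With median centring YCR001W was at 0.94 and 0.82 at 0 and 30 min, and 6 features passed at 15 min and 53 the WT-aa F-test. The authors' table gave YCR001W 0.44 and 0.43 at 15 and 60 min (adjusted p = 0.048 and 0.015), YMR187C 0.25 and 0.29 at 60 and 90 min, and 152 for the F-test. External-control centring moved the median of all features to -0.17 at 0 min and -0.23 for WT-aa 90 against 0 min; it gave YMR187C 0.27 at 60 min, and 2, 25 and 0 features passed at 15 min, at 60 min and in the limma F-test (291 at an unadjusted p under 0.05). Array weights kept YCR001W at 0.47 and 0.38 (adjusted p = 0.0107 and 0.0344) and YJR154W in WT-aa at 1.65 (adjusted p = 0.00828; F = 19.4, adjusted p = 0.00266), with 1466 for the F-test. An intensity trend in eBayes left YCR001W at 0.47 and 0.38 (adjusted p = 0.0219 and 0.0235) and YMR187C at 0.30 (adjusted p = 0.057). Fitting only the arrays compared gave YMR187C 0.30 (adjusted p = 0.328), YJR154W in WT-aa 1.65 (adjusted p = 9.89e-08, on few residual degrees of freedom), and 2, 21 and 31 features. Without the replicate block YMR187C was at 0.30 (adjusted p = 0.440), and 4, 47 and 30 features passed, against 14, 78 and 87 with it; it changed no other member's call.

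Without the 4 arrays of 30 min, chosen after seeing the data, YCR001W was at 0.47 and 0.38 and YJR154W in WT-aa at 1.65 (F = 32.2), all past the threshold, with 488 features at 60 min and 1149 in the F-test; the YMR187C change of 0.35 from 0 to 60 min then passed too (adjusted p = 0.0428). Leaving out 1 array at a time gave YCR001W 0.68 to 0.80, 0.40 to 0.54, 0.56 to 0.81, 0.34 to 0.42 and 0.32 to 0.53 over the 5 times, YMR187C 0.26 to 0.35 at 60 min and 0.30 to 0.40 at 90 min, and YJR154W 1.42 to 1.88 in WT-aa (F = 4.55 to 16.0) and 1.88 to 2.45 in Hsf1-aa. YCR001W also passed at 15 min without either Hsf1-aa array of 30 or 90 min, and at 60 min without either Hsf1-aa array of 30 min. The YJR154W change in WT-aa passed without either Hsf1-aa array of 30 min. Its F-test passed without either of those arrays, or without the WT-aa b array of 30 min. The counts were 4 to 16 at 15 min, 43 to 143 at 60 min and 38 to 1224 in the F-test, and the cause of these moves was not tested. Over all alternatives the strain counts at 0, 30 and 90 min were 2 to 10, 2 to 939 and 24 to 104, those of 90 against 0 min 34 to 854 in Hsf1-aa and 1 to 264 in WT-aa, and that of the change to 60 min 6 to 300. Settings not named here kept each member's side of the threshold. The promoter motif search was not run. Dim signal limits YCR001W, and 2 arrays per group limit all values.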
